A study of Mus musculus with 8 samples.

Results

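The miRNA precursors mmu-mir-31, mmu-mir-489 and mmu-mir-708 (mir-31, mir-489 and mir-708 from here on), known for holding muscle satellite cells in quiescence, were followed through myoblast libraries of old and young mice. They were taken by name, and all 3 were found among the 1181 precursors measured. The old group held 4 libraries and the young group 4, numbered by the labels (old 1 to old 4, young 1 to young 4). Whether each library is a separate animal is not stated in the sample titles. Values given below for old or young animals are over the libraries of that group. All animals were C57BL/6J with no transgene or treatment given, and the labels state the ages only as old and young. How the myoblasts were isolated and how long they were cultured is not given in the sources used here, and the series title names miR-431 and the regeneration of old muscle.

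Satellite cells are the stem cells of skeletal muscle. They lie quiescent against the fibre, and after injury they enter the cell cycle and become myoblasts, which fuse into fibres. In mouse satellite cells miR-31 is known to hold the mRNA of Myf5, a myogenic transcription factor, in a silent store. miR-489 is known to repress Dek, a chromatin protein that favours proliferation, and miR-708 to repress Tns3, a focal adhesion protein, which keeps the cell in its niche.

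The mature sequences show what sets the 3 miRNAs apart and which other miRNAs share their targeting bases. They are printed 5′ to 3′ from RefSeq (GRCm38.p6) with the seed, bases 2 to 8, in capitals.
miR-31-5p: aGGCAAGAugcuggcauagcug
miR-489-3p: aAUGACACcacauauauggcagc
miR-708-5p: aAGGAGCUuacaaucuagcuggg
miR-425-5p: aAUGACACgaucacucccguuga
miR-28a-5p: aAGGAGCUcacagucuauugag
The 3 members have different seeds. Among the 1679 mature miRNA names of the RefSeq table, the seed of miR-31-5p belonged to that miRNA alone. The seed of miR-489-3p was also carried by miR-425-5p, and that of miR-708-5p by miR-28a-5p. miR-708-5p and miR-28a-5p were identical at 16 of 22 positions counted from the 5′ end, and outside the seed they differed by U9C, A13G, G18U, C19U, U20G and G21A (miR-708-5p base first).

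The 3 precursors lie on different chromosomes. mir-31 lies at chr4:88910557-88910662 on the minus strand (mm10), in an exon of the long noncoding RNA gene AL805899.1. mir-489 lies at chr6:3721897-3722003 on the minus strand, in an intron of Calcr, the gene of the calcitonin receptor, which marks quiescent satellite cells. A second precursor, mir-653, lies in the same intron region, 511 bases away. mir-708 lies at chr7:96249424-96249532 on the plus strand, in an intron of Tenm4, a teneurin gene. The file gives 1 value per hairpin and none per arm, so the mir-31 and mir-489 hairpins are shown whole, with both mature arms in capitals.
mir-31 hairpin: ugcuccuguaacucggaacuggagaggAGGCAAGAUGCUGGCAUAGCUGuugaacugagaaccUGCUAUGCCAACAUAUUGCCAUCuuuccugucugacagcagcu
mir-489 hairpin: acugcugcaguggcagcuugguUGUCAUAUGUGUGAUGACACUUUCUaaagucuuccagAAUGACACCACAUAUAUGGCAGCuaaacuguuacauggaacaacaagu

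Letters that pair with each seed stood in the 3′ untranslated region of the known target. Each region below is from the longest GENCODE M21 region of the gene, searched on the mRNA strand only, with the 7 letters that pair with the seed in capitals.
Myf5, bases 102 to 125 of 1112: cggttgtaaatactgTCTTGCCac
Dek, bases 689 to 712 of 1286: tgctttgccctcaaaGTGTCATca
Dek, bases 719 to 742 of 1286: ttgtgttaactctaaGTGTCATag
Tns3, bases 1793 to 1816 of 2842: actattccactttttAGCTCCTat
TCTTGCC was found once in Myf5, GTGTCAT 2 times in Dek and AGCTCCT once in Tns3. The shares of regions that held these letters are over the first stretch of equal length of every region at least as long. They were 9.51% of 9466, 8.08% of 8452 and 25.1% of 3076 regions, in the same order, whatever the number of matches. The share with 2 matches, as in Dek, was not counted. A match describes the letters alone, and no mRNA was measured in these libraries.

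The 3 miRNAs stood at very different levels in these myoblasts. mir-31 was abundant in every library, mir-708 was low in value, and mir-489 was listed at 0 in all 8 libraries. By its mean mir-708 stood at rank 384 of the 1181 precursors, of which 781 were above 0 in at least 1 library. Levels are log2 abundances as the authors deposited them. Their steps behave as reads per kilobase of hairpin scaled to library size (RPKM). The hairpins of mir-31, mir-489 and mir-708 are 106, 107 and 109 bases long, so division by length weighs nearly alike on them. Levels of different precursors are set beside each other in this unit, and how well it compares different sequences was not tested. mmu-mir-31 averaged 13.93 ± 0.49 among the old and 13.85 ± 1.03 among the young animals (SD, n = 4 each), and 34 of the 1181 precursors had a higher mean. Its rank within a library ran from 27 to 63. It held 0.0430% (young 1) to 0.347% (young 4) of the summed linear values of a library. That sum holds the highly abundant mir-486 and mir-3107, which ran 0.51 to 0.52 apart in all 8 libraries, so the share also moves with them. mir-486 was at 22.11 in young 1 and at 20.29 in young 4.

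**Figure D1:**
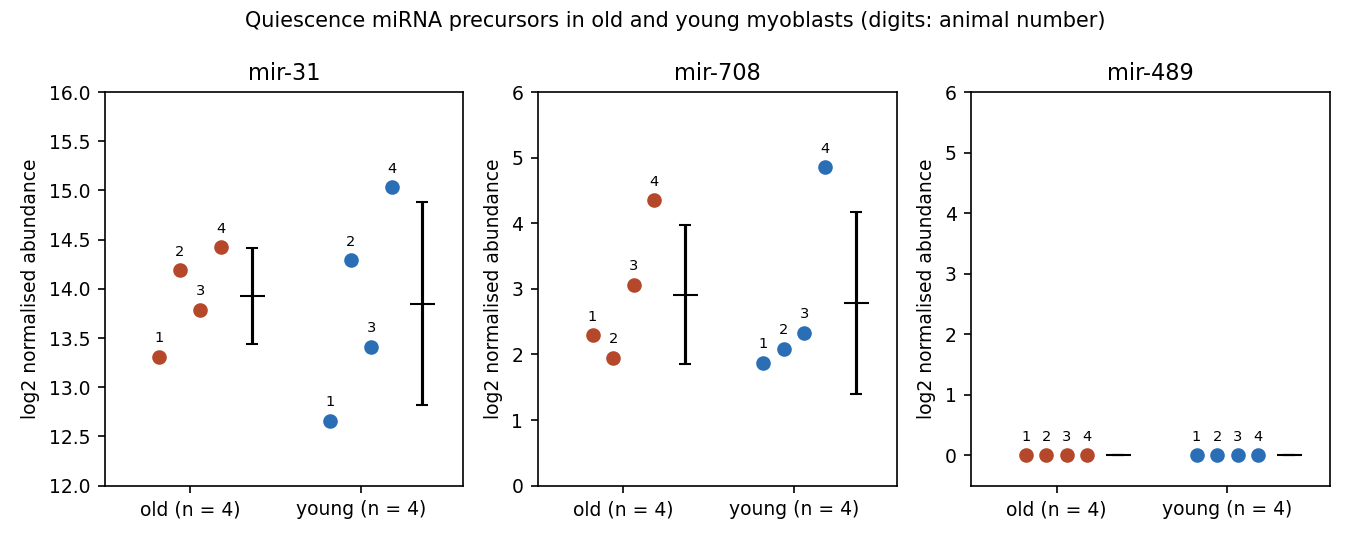
Log2 normalised abundance of mir-31, mir-708 and mir-489 in each old and young library. The replicate number is above each point and the mean ± SD (n = 4 libraries) beside each group. The heading of the figure calls these digits animal numbers, which the sample titles do not state. The vertical scales differ. The old and young points overlap for mir-31 and mir-708, and mir-489 is at 0 in all 8 libraries.

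mmu-mir-31 passed no test between old and young myoblasts, and its values spread as widely within each age as between them. Old 1 to old 4 were at 13.31, 14.19, 13.79 and 14.42, beside young 1 to young 4 at 12.66, 14.29, 13.41 and 15.03. The groups overlapped fully, since the lowest and the highest library were both young. The old mean exceeded the young mean by 0.08 on the log2 scale (SE 0.51, 95% interval -1.06 to 1.22) with an adjusted p of 0.995 in limma over 359 precursors. By exact permutation, two-sided, p was 0.886, and a design of this size can reach no p below 0.0286. The interval does not exclude a change of up to 2-fold either way. In the same limma comparison 0 of 359 precursors (0%) passed an adjusted p of 0.05 and 4 (1.11%) had an unadjusted p under 0.05. That last count rested on single libraries, being 36 with old 3 left out, 27 with young 4, 1 with old 2, and 2 with old 4 or young 3 left out, and it was 27 with array weights and 39 with a replicate block. In each of these fits 0 passed the adjusted threshold. Of all compared precursors 3 (0.836%) had groups without overlap, and mir-31 was not one of them. Each numbered replicate has 1 library, so the spread holds differences between replicates and between library preparations together. The sample titles do not state whether the replicates are separate animals.

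The sign of so small a difference rested on single libraries. For mir-31 it turned to -0.0075 with old 2 left out, to -0.084 with old 4, to -0.32 with young 1 and to -0.066 with young 3 left out, and it reached 0.47 without young 4 (limma adjusted p = 0.761). None of these alternatives passed the threshold.

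mir-708 was present in every library, but at few reads. Old 1 to old 4 were at log2 values of 2.29, 1.95, 3.06 and 4.35, beside young 1 to young 4 at 1.87, 2.09, 2.33 and 4.85. Old 4 and young 4 stood above all others, and the rest lay together whatever the age. Read as RPKM, these values correspond to 15, 11, 24 and 56 reads in old 1 to old 4, beside 12, 15, 18 and 124 reads in young 1 to young 4. The counting interval was 42.3 to 72.7 reads for old 4 and 103.1 to 147.8 reads for young 4. For the other 6 libraries the intervals reached no higher than 35.7 reads. These reads are not scaled for library size, which ran from 25.1 to 39.4 M reads. Old 4 and young 4 were singled out by their high values, and the intervals cover counting error only, so no test of these libraries is drawn from them.

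mir-708 showed no difference with age beyond this spread. mmu-mir-708 averaged 2.91 ± 1.06 among the old and 2.79 ± 1.39 among the young animals (SD, n = 4 each). It missed the filter on low values, having reached a linear value of 10 in old 4 and young 4 alone, so its test comes from the fit of all 781 precursors above 0 somewhere. There the old mean was higher by 0.13 on the log2 scale (SE 0.84, 95% interval -1.78 to 2.03), at a limma adjusted p of 0.993 and an unadjusted one of 0.883. By exact permutation, two-sided, p was 0.857. In that fit too 0 of 781 precursors (0%) passed, with 19 (2.43%) at an unadjusted p under 0.05. The difference turned to -0.35 with old 4 left out, to -0.18 with young 1, to -0.10 with young 2 and to -0.024 with young 3 left out, and it was 0.82 without young 4, with limma adjusted p from 0.746 to 0.999 over all single omissions.

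mmu-mir-489 was listed at 0 in old 1 to old 4 and at 0 in young 1 to young 4. A value of 0 stands for a linear value under 1. For a hairpin of 107 bases this is fewer than 2.69 to 2.99 reads in old and 3.21 to 4.22 reads in young libraries, if the values are RPKM. mir-653, its neighbour in Calcr, was also at 0 in all 8 libraries, as were 400 of the 1181 precursors (33.9%). No fold change or test can be given for mir-489, and a level below this floor of the deposited values cannot be seen in either group.

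The miRNAs that share a seed with mir-489 and mir-708 were far more abundant than these members. mir-425, whose mature miRNA has the seed of miR-489-3p, measured 9.29, 9.04, 9.24 and 10 in old 1 to old 4, beside 9.09, 9.50, 8.85 and 10.03 in young 1 to young 4. Its mean was 9.39 ± 0.42 among the old and 9.37 ± 0.52 among the young animals, and these means lay 0.025 apart (limma adjusted p = 0.995). mir-28a, with the seed of miR-708-5p, stood at 10.39, 10.66, 10.46 and 10.86 in old 1 to old 4, beside 10.32, 11.08, 10.60 and 11.60 in young 1 to young 4. Its mean was 10.59 ± 0.21 among the old and 10.90 ± 0.56 among the young animals, which gives -0.31 for old minus young (SE 0.35, limma adjusted p = 0.995). Each was higher than its member in every one of the 8 libraries. The other hairpins of the miR-28 family were mir-151, the most abundant of them at 18.88 ± 0.29 among the old and 19.09 ± 0.73 among the young animals, mir-28c at 2.40 ± 0.72 and 2.46 ± 0.98 in the same order, and mir-28b, which was listed at 0 throughout (SD, n = 4 each).

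**Figure D2:**
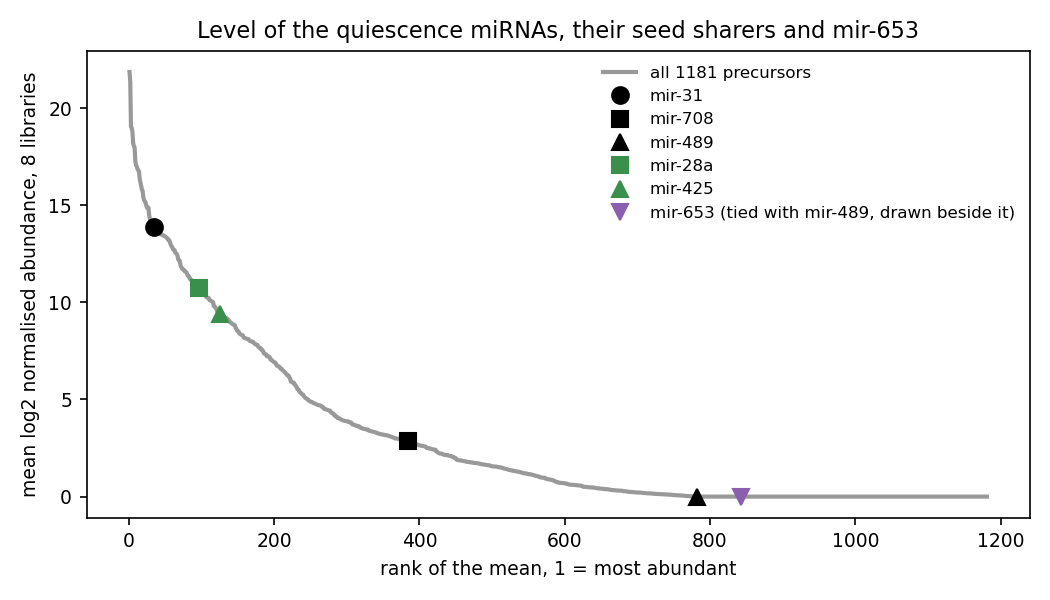
Mean log2 normalised abundance over the 8 libraries of all 1181 precursors in order of rank (grey line), with the 3 members (black), the precursors that share a seed with mir-708 and mir-489 (green) and mir-653 (purple). mir-31 stands at rank 35 and mir-708 at rank 384, while mir-28a and mir-425 stand at ranks 96 and 126 and mir-489 lies on the floor of 0.

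mir-31 and mir-708 both peaked in old 4 and young 4, lay close together below their means in old 1, young 1 and young 3, and parted in old 2 and young 2. Relative to its own mean over the 8 libraries, mir-31 was 0.53 higher in old 4 and 1.14 higher in young 4, and mir-708 was 1.50 and 2.0 higher in the same libraries. The deviations were -0.58 for mir-31 and -0.56 for mir-708 in old 1, -1.23 and -0.98 in young 1, and -0.48 and -0.52 in young 3. In old 3 they were -0.098 for mir-31 and 0.21 for mir-708. In old 2 and young 2, by contrast, mir-31 lay 0.30 and 0.40 above its mean, while mir-708 stood at -0.90 and -0.76. The linear value of mir-31 was 1075 to 4837 times that of mir-708. The log2 ratio of mir-31 to mir-708 within a library, which does not depend on library size, averaged 11.02 ± 0.91 among the old and 11.06 ± 0.85 among the young animals (SD, n = 4 each, exact permutation p of 0.829, two-sided).

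Part of this course was shared by the compared precursors as a whole. The median deviation of the 359 precursors was 0.35 in old 4 and 0.58 in young 4, against -0.28 in old 1 and -0.33 in young 1. With these medians taken out, mir-31 measured 13.59, 14.26, 13.77 and 14.07 in old 1 to old 4, beside 12.99, 14.20, 13.59 and 14.45 in young 1 to young 4. Its range over the 8 libraries was then 1.47, in place of 2.37 as deposited, and the range of mir-708 was 2.275 in place of 2.98. The group differences after this rescaling were 0.12 for mir-31 and 0.16 for mir-708 (limma adjusted p = 0.970 and 0.973). The highly abundant mir-486 was at 21.72, 21.06, 21.50 and 21.37 in old 1 to old 4. In young 1 to young 4 it was at 22.11, 20.99, 21.74 and 20.29. Values scaled to library size can move with so abundant a precursor. Its part in the course of mir-31 and mir-708 was not tested.

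**Figure D3:**
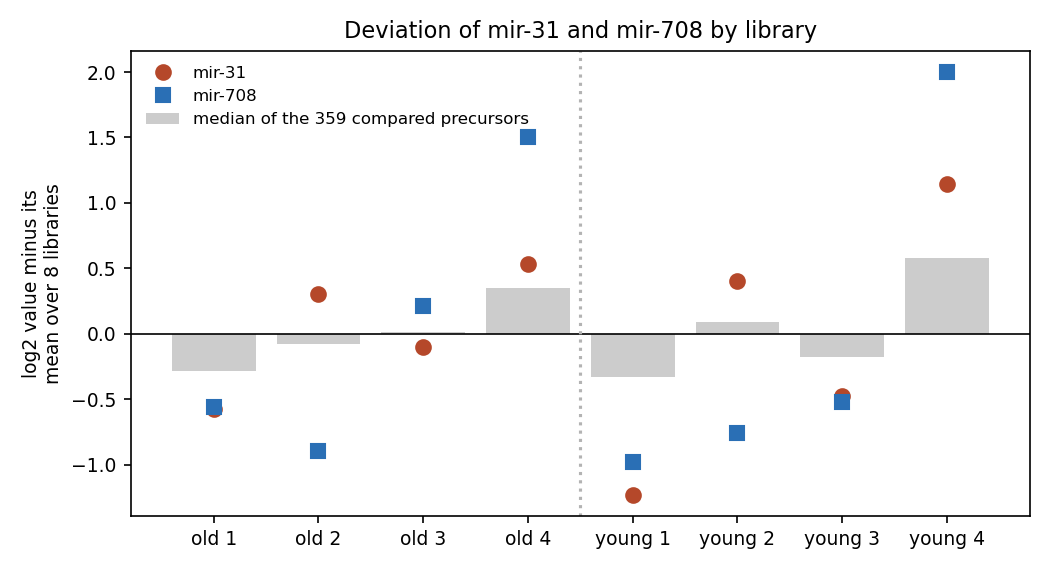
Log2 value of mir-31 (circles) and mir-708 (squares) minus its own mean over the 8 libraries, by library, with the median of the 359 compared precursors as grey bars. Both miRNAs and the median are highest in young 4 and next highest in old 4.

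Marker miRNAs of other cell types moved with these libraries in part. Of 7 epithelial markers 2 passed the filter, and mir-200a and mir-429 were at 0 throughout. Their summed linear value was 278.2 in old 4 and 201.0 in young 4, carried by mir-205, against 39.5 to 74.6 in the other old and 68.6 to 97.6 in the other young libraries. The endothelial marker mir-126a had a linear value of 20.3 in old 4 and 34.5 in young 4 and at most 12.8 elsewhere. The myogenic list (6 of 6 in the file, 4 passing the filter) summed to 78384 in old 4, against 74089 to 102304 in the other old libraries. In young 4 it summed to 36589, the lowest of all libraries, against 79442 to 153324 in the other young libraries. Blood markers were at 0 in every old library and at most 1.85 in the young ones, with mir-142, mir-144 and mir-223 at 0 throughout. The summed fibroblast and smooth muscle markers ran from 41938 to 58764 in old and from 24441 to 51299 in young libraries, and neural markers from 4.59 to 22.4 and from 7.09 to 17.4. The part of other cells in the values of mir-31 and mir-708 was not tested, and in bulk libraries fewer cells of a type and less RNA per cell cannot be told apart.

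The precursors nearest to mir-31 in their course over the 8 libraries were mir-30d, mir-212 and mir-194-1. Their centred log2 values differed from those of mir-31 by a root mean square of 0.21, 0.25 and 0.26, against a median of 0.65 over the 358 other compared precursors. mir-30d averaged 15.87 ± 0.40 among the old and 16.12 ± 0.89 among the young animals. For mir-212 the means were 7.98 ± 0.69 (old) and 7.84 ± 0.92 (young), and for mir-194-1 they were 4.73 ± 0.38 (old) and 4.51 ± 0.83 (young; SD, n = 4 each). For mir-708 the nearest were mir-187, mir-126b and mir-221, at 0.50, 0.51 and 0.51, against a median of 0.97 over 359. mir-708 lay 0.76 from mir-31 by the same measure, and 0.53 from the endothelial marker mir-126a. The log2 value of mir-126b was 0.18 to 0.33 above that of mir-126a in all 8 libraries. No precursor ran parallel to mir-31 or mir-708 within 0.05 in all libraries, as hairpins that list the same reads do.

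Other miRNAs that are known to act on satellite cells were compared as background. Of 16 precursors on this list, all in the file, 10 passed the filter on low values and 0 of these passed the threshold. Among the 10, the mean was higher in old libraries for 7 and lower for 3, with a median difference of 0.10, beside a median of -0.053 and 46.0% higher over all 359 compared. The 4 with the highest means were mir-486 and mir-206, which act against Pax7 in mouse, mir-27b, which acts against Pax3, and mir-133a-1, which favours proliferation. On old minus young, mir-486 stood at 0.13, mir-206 at 0.18, mir-27b at 0.015 and mir-133a-1 at -0.235, each with a limma adjusted p of 0.995. The copies of mir-133a follow each other closely, so the list does not hold 10 separate measurements.

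Further miRNAs linked to satellite cell quiescence were scarce too. mir-195a measured 0.92, 2.41, 2.02 and 3.46 in old 1 to old 4, beside 1.96, 3.16, 2.55 and 2.19 in young 1 to young 4, and mir-195b was listed at 0 throughout. mir-497 averaged 3.31 ± 0.64 among the old and 3.15 ± 1.71 among the young animals (SD, n = 4 each). mir-497b, which overlaps it on the other strand, was -0.58 to -0.57 relative to it in all 8 libraries, as hairpins do that list one set of reads 2 times. These miRNAs lower cell cycle regulators in mouse satellite cells. Among the 7 precursors linked to quiescence here, which include both mir-497 and mir-497b, mir-31 had the highest mean. mir-31 and mir-497 passed the filter on low values, as did 359 of all 1181 precursors. None of the 7 that could be tested differed between old and young libraries beyond their spread.

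**Figure D4:**
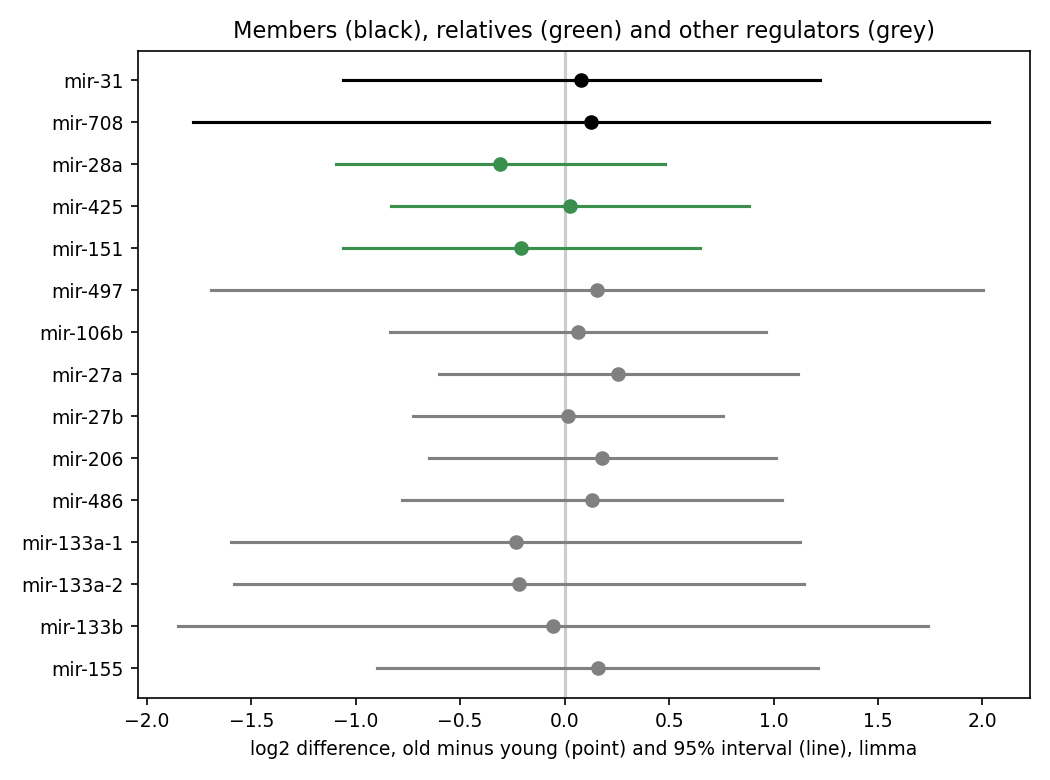
Log2 difference, old minus young, with its 95% interval from limma for mir-31 and mir-708 (black), relatives by seed or hairpin family (green) and the 10 other satellite cell regulators that passed the filter on low values (grey). Each interval includes 0; that of mir-708 runs from -1.78 to 2.03 and that of mir-31 from -1.06 to 1.22.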

How the data were processed

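Small RNA libraries of old (4) and young (4) C57BL/6J animals were compared. Per the labels, a mirVana kit was used to isolate RNA, and the sequencer was an Illumina GAIIx. The authors deposited log2 abundances with 2 decimals for 1181 miRNA precursors, normalised per library and floored at 0. BWA and mm10 are named in the submitters' processing notes, with no version or role. How reads were counted and normalised, also where they match several places, is not given in the sources used here. Each hairpin has 1 value in the file, and its arms have none of their own.

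The low values were tested for steps. Taken as reads per kilobase scaled to library size, with RefSeq precursor lengths (1161 matched), every value of at most 12 reads fell within 0.1 of a whole read in every library (108 to 207 values each). Implied library sizes were 25.1 to 39.4 M reads. Reads recovered in this way were used to describe depth and in 1 alternative. Counting intervals are exact Poisson intervals at 95% and cover counting error only, since reads are not independent molecules.

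limma 3.58.1 (R 4.3.3, eBayes with trend) was run on the deposited log2 values, with no pseudocount, for the 359 precursors whose linear value reached 10 in 4 or more libraries. Benjamini-Hochberg adjusted p-values were read at 0.05. mir-708 missed this filter, so its values come from a fit of all 781 precursors above 0 in at least 1 library. Precursors named beside the members are relatives, the regulators of highest mean and the 3 nearest in pattern for each measured member; mir-425 was found by a search for shared seeds. The members and lists were chosen with earlier results of these data known. Mature sequences, hairpins and positions are from RefSeq (GRCm38.p6, the build of mm10), and overlapping genes and 3′ untranslated regions from GENCODE M21. Alternatives were pseudocounts of 0.5 and 10, no filter, a mean of at least 100, rescaling by median ratio or quantiles, limma with array weights or without trend, a replicate block and leaving out each library; voom on recovered reads and leaving out old 4 and young 4 together were added after seeing the data. Other steps used scipy 1.17.1, pandas 2.3.3 and numpy 2.4.6 under Python 3.11.15, with figures from matplotlib 3.10.9.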

Additional observations from a re-analysis of the deposited data

Results flagged for a closer look

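Among the named precursors, 54 groups of 4 libraries were examined for a library that stood apart, and 7 were found. For a single group chance gives about 1 in 20. The groups are not independent, since some precursors list nearly the same reads and others were picked for following mir-31 or mir-708. The 7 can therefore not be set against that rate. In mir-708, young 4 at 4.85 stood above the other young libraries, which lay between 1.87 and 2.33. In mir-187 and mir-194-1, near mir-708 and mir-31 in pattern, old 4 stood at 8.59 and 5.30, above the other old libraries at 7.28 to 7.39 and 4.49 to 4.58. In mir-133a-1 and mir-133a-2, which ran nearly parallel, old 3 stood at 14.3 and 13.69, above the other old libraries at 12.94 to 13.11 and 12.31 to 12.51. In mir-27b, young 2 stood at 16.67, above the other young libraries at 15.97 to 16.07. In mir-682, young 4 stood at 0.40 and the other young libraries at 0 to 0.05, close to the floor of the file.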

How the results depend on the processing

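The count of precursors past the threshold was 0 with all 19 alternatives, while 0 to 39 had an unadjusted p under 0.05 (36 without old 3, 27 without young 4, 27 with array weights, 39 with the block, 4 with all libraries). The mir-31 and mir-708 differences passed in none of their 19 and 18 alternatives (limma adjusted p from 0.761 to 1 and from 0.746 to 0.999). Leaving out 1 library each gave -0.32 to 0.47 for mir-31 and -0.35 to 0.82 for mir-708, with the sign turned in 4 of 8 omissions for each, named in the report. No other alternative turned a sign: the lowest and highest of the others were 0.080 and 0.31 for mir-31 (a pseudocount of 10; without old 4 and young 4 together) and 0.0045 and 0.41 for mir-708 (a pseudocount of 10; array weights). mir-708 is absent under a mean of at least 100, and mir-489, at 0 everywhere, has no value under any alternative. With a replicate block in the fit, 0 passed and the differences stayed at 0.08 for mir-31 (adjusted p = 0.947) and 0.13 for mir-708 (adjusted p = 0.946). Deviations of same-numbered old and young libraries correlated at -0.064, 0.43, 0.66 and 0.58 for numbers 1 to 4. Old 2, old 3 and old 4 thus correlated best with their own number, a hint from the data that the labels do not state, while old 1 matched no young library well (0.095 at best, with young 4). The labels give no pairing, so the fit without the block was kept as the main one. The permutation tests were unpaired as well. Whether libraries of the same number share a batch was not tested. Depth limits mir-708, at 11 to 124 reads. The floor of the deposited values limits mir-489, at fewer than 4.22 reads if the values are RPKM.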
